A study of Mus musculus with 8 samples.

Results

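The genes described here are 9 genes of red cells and of the cells that make them: Alas2, Slc4a1, Klf1, Hba-a1, Hba-a2, Hbb-b1, Hbb-y, Epor and Tfrc. They were taken by symbol from a table of 25965 genes, and all 9 were among the 15627 genes that were abundant enough to test. The table holds total RNA of mouse lung from Wfdc2 +/+ and Wfdc2 GFP/GFP animals before birth (embryonic day E18.5) and after it (postnatal day P1.5). Each of the 4 groups had 2 libraries, which makes 8. In Wfdc2 GFP/GFP mice both alleles of Wfdc2 lack the second exon and part of the first in every cell, where a GFP cassette stands instead, and the cassette ends in a polyadenylation sequence of rabbit beta-globin. It was made in 1 line of embryonic stem cells (TT2), which were joined with ICR embryos, and a marker gene in it was removed by a cross to CAG-Cre mice. The study describes the Wfdc2 +/+ mice as littermate controls. Neither the number of animals behind a library nor which libraries share a litter is given in the sources used here, so the spread between libraries may in part be technical.

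Red cells carry haemoglobin, which joins alpha-like and beta-like globin chains around heme. The mouse makes embryonic globins in the first red cells of the yolk sac and adult globins in the red cells of fetal liver and, later, bone marrow. Maturing red cells take up iron through the transferrin receptor, make heme, fill with globin mRNA and lose their nucleus, and the youngest of them still carry that mRNA in the blood. The lung is not known as a main site of red cell production before birth, and in whole lung RNA more blood in the sample and more mRNA per red cell cannot be told apart.

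The libraries held between 19457647 and 37209334 reads, so that 3 reads, taken as the limit of detection, stood for 0.0806 to 0.154 RPM (reads per 1000000 reads of the library). Wfdc2 itself had 8038 to 32845 reads in the 4 Wfdc2 +/+ libraries and 0 to 12 in the 4 Wfdc2 GFP/GFP libraries. In each group replicate 1 had 4121 to 90980 reads of Xist, the RNA of the inactive X chromosome, and replicate 2 had 1 to 13. Of 2 genes of the Y chromosome, Ddx3y had 0 to 3 reads in replicate 1 and 972 to 2175 in replicate 2. Kdm5d had 0 to 1 and 144 to 878. By these reads replicate 1 was female and replicate 2 male, so the spread within each group includes a difference of sex. The library E18.5 Wfdc2 GFP/GFP replicate 1 stood apart from the rest. It had 1531 RPM over 8 genes of dividing cells, against 91.6 to 704.6 in the other libraries, and 8175 RPM over 6 genes of lung epithelium, against 18324 to 76403. The member differences and list calls that move with it are given with and without it, and in fits that leave out a library the other library of its group was taken to vary like the other groups. In P1.5 Wfdc2 +/+ replicate 2, 4 liver genes summed to 72.9 RPM, against 0.995 to 7.05 elsewhere.

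Ordered by level per kilobase of exon, the members spanned a wide range. The median over the 8 libraries was 6656 RPM per exon kilobase for Hbb-b1, 1125 for Hba-a1, 90.7 for Alas2, 71.0 for Hba-a2, 10.6 for Tfrc, 4.0 for Slc4a1, 1.78 for Epor, 1.66 for Hbb-y and 0.348 for Klf1. The adult globins Hbb-b1 and Hba-a1 thus stood at the top and the transcription factor Klf1 at the bottom. Tfrc and Epor are also made by cells outside the red lineage, and their levels in lung need not come from red cells. Levels below are reads or RPM, not divided by length, and compare libraries within 1 gene. Differences are on the log2 RPKM scale, and positions are those of the mm10 build.

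**Figure D1:**
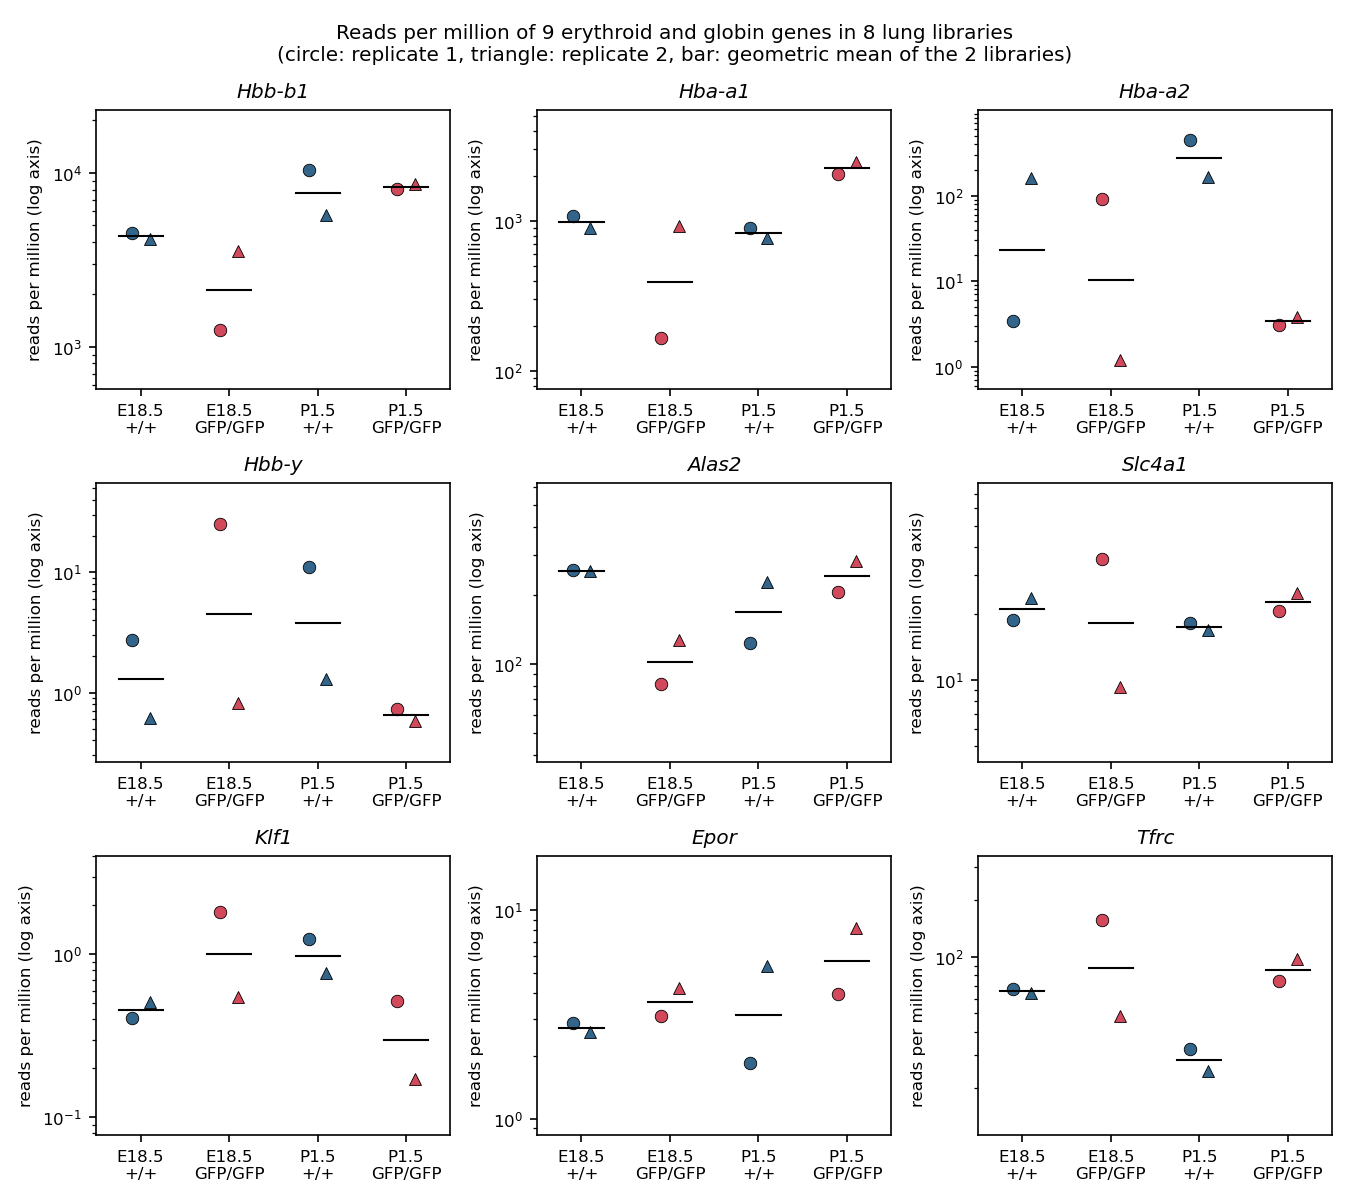
Scaled reads (RPM, log axis) of the 9 genes in each of 8 lung libraries, by stage and genotype, with circles for replicate 1, triangles for replicate 2 and a bar for the geometric mean of the 2 libraries. Hbb-b1 ran from 1252 to 10383 RPM and lay higher in every P1.5 library than in any E18.5 library, while Hba-a2 ran from 1.20 to 453 RPM with no such order.

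The globins were read first for how well they can be told apart, because the authors' reads were cut to 36 bases. In GENCODE release M21 (GRCm38), the coding sequences of Hba-a1 and Hba-a2 are 429 bases long and differ at 1 base, C381T, where the first letter is the base of Hba-a1, the last that of Hba-a2, and positions count from 1 at the start codon. The stretch from 366 to 395 of each shows the only coding base that distinguishes the pair, with the differing base in capitals.
Hba-a1: gcatgcctctctggaCaaattccttgcctc
Hba-a2: gcatgcctctctggaTaaattccttgcctc
The adult beta-globins are as close. The gene that the table calls Hbb-b1 lies on chromosome 7 where GENCODE names Hbb-bs, and Hbb-b2 lies where it names Hbb-bt. Their coding sequences of 444 bases differ at 1 base too, C417T, with the base of Hbb-bs first, shown in the stretch from 402 to 431.
Hbb-bs: ggtggctggagtggcCgctgccctggctca
Hbb-bt: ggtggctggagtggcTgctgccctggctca
Of the stretches of 36 bases in the Hba-a2 transcript, 10.02% occurred in no other annotated gene, against 29.7% for Hba-a1, 33.4% for Hbb-bs and 40.9% for Hbb-bt. For Hbb-y, Alas2, Slc4a1, Klf1, Epor and Tfrc it was 100% each. How the counting treated reads that fit several places is not given in the sources used here, so the split between the genes of each adult pair is uncertain, and so is the summed level of a pair if such reads were left out. Whether reads of the rabbit sequence in the cassette were counted on mouse globins was not tested.

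Hba-a2 (chromosome 11, 32296489 to 32297298, plus strand) encodes an adult alpha chain, as does Hba-a1 (chromosome 11, 32283511 to 32284465, plus strand). At E18.5 Hba-a2 had 3.43 and 160.2 RPM in Wfdc2 +/+ replicates 1 and 2 and 90.9 and 1.20 RPM in Wfdc2 GFP/GFP. At P1.5 it had 453 and 164 RPM in Wfdc2 +/+ and 3.11 and 3.79 RPM in Wfdc2 GFP/GFP. The replicates of each E18.5 group thus lay further apart than the groups did. As a share of the reads of both alpha genes, Hba-a2 took 0.129% to 0.316% in 4 libraries, namely E18.5 Wfdc2 +/+ replicate 1, E18.5 Wfdc2 GFP/GFP replicate 2 and both of P1.5 Wfdc2 GFP/GFP. It took 15.1% (95% Wilson interval 14.7% to 15.5%) in E18.5 Wfdc2 +/+ replicate 2 and 17.6% (17.1% to 18.2%) in P1.5 Wfdc2 +/+ replicate 2. It took 33.7% (33.1% to 34.2%) in P1.5 Wfdc2 +/+ replicate 1 and E18.5 Wfdc2 GFP/GFP replicate 1 had 35.3% (34.3% to 36.2%). These 3 levels, which followed neither stage nor genotype nor replicate number, lay far outside the counting error that the intervals cover. The study names a pair of sequencer models, HiSeq2500 and GAIIx, without saying which library was read on which, and their part in these levels was not tested. Hba-a2 is therefore given below beside its sum with Hba-a1.

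**Figure D2:**
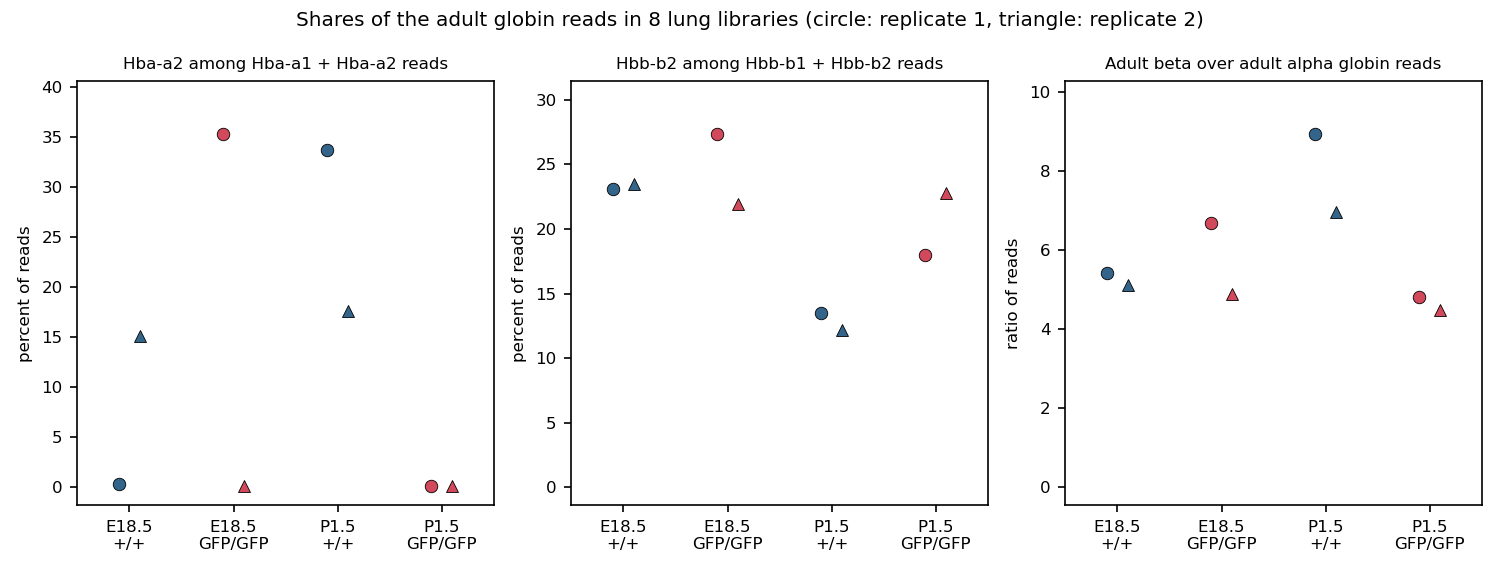
Percent of the adult alpha-globin reads that fell on Hba-a2 (left), percent of the adult beta-globin reads that fell on Hbb-b2 (middle) and the ratio of adult beta to adult alpha reads (right) in each of 8 libraries, with circles for replicate 1 and triangles for replicate 2. The Hba-a2 share sat at 0.129% to 0.316%, at 15.1% to 17.6% or at 33.7% to 35.3%, in no order of the groups, and the ratio was highest in the 2 P1.5 Wfdc2 +/+ libraries.

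Hba-a1 had 1081 and 901 RPM in the 2 libraries of E18.5 Wfdc2 +/+, 167 and 925 in E18.5 Wfdc2 GFP/GFP, 892 and 766 in P1.5 Wfdc2 +/+, and 2043 and 2482 in P1.5 Wfdc2 GFP/GFP. The P1.5 Wfdc2 GFP/GFP libraries were the highest of all, and E18.5 Wfdc2 GFP/GFP replicate 1 was the lowest. Summed with Hba-a2, the alpha reads were 1085 and 1062 RPM in E18.5 Wfdc2 +/+ and 258 and 926 RPM in E18.5 Wfdc2 GFP/GFP. At P1.5 the sum was 1345 and 930 RPM in Wfdc2 +/+ and 2046 and 2486 RPM in Wfdc2 GFP/GFP. In this sum the stages of Wfdc2 +/+ overlapped, those of Wfdc2 GFP/GFP did not, and at P1.5 the genotypes did not.

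Hbb-b1 (chromosome 7, 103826534 to 103828096, minus strand), an adult beta chain, was the most abundant member. It had 4525 and 4162 RPM in E18.5 Wfdc2 +/+, 1252 and 3545 in E18.5 Wfdc2 GFP/GFP, 10383 and 5699 in P1.5 Wfdc2 +/+, and 8057 and 8597 in P1.5 Wfdc2 GFP/GFP. It was the only member whose 4 P1.5 libraries all lay above its 4 E18.5 libraries. Its neighbour Hbb-b2, not a member, took 21.9% to 27.3% of the adult beta reads in the E18.5 libraries, 13.5% and 12.2% in P1.5 Wfdc2 +/+, and 18.0% and 22.8% in P1.5 Wfdc2 GFP/GFP. The adult beta reads outnumbered the adult alpha reads 4.48 to 8.93 times, with 8.93 and 6.98 for Wfdc2 +/+ at P1.5 as the most and 4.80 and 4.48 for Wfdc2 GFP/GFP at P1.5 as the least. Together the 4 adult globin genes took 0.198% to 0.697% of all reads at E18.5 and 0.742% to 1.36% at P1.5.

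Hbb-y (chromosome 7, 103851745 to 103853240, minus strand) encodes an embryonic beta-like chain, and its transcript shares no stretch of 36 bases with another gene. It had 94 and 19 reads in E18.5 Wfdc2 +/+, 931 and 24 in E18.5 Wfdc2 GFP/GFP, 239 and 25 in P1.5 Wfdc2 +/+, and 17 and 17 in P1.5 Wfdc2 GFP/GFP. Thus 2 libraries, E18.5 Wfdc2 GFP/GFP replicate 1 and P1.5 Wfdc2 +/+ replicate 1, stood above the others, at 25.0 and 11.0 RPM against 0.581 to 2.73 RPM. The other replicate of each of these groups had 0.821 and 1.28 RPM, so these replicates lay far apart. Between genotypes the libraries overlapped at E18.5 and did not at P1.5, where the difference was -2.53 (SE 1.60, adjusted p = 0.61). Per 100000 adult beta reads, Hbb-y had 1453 reads in the first of them, 91.7 in the second and 5.22 to 46.4 in the other 6.

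Hba-x, an embryonic alpha-like chain that is not a member, was counted separately from Hbb-y on another chromosome and was high in the same 2 libraries. It had 243 reads in E18.5 Wfdc2 GFP/GFP replicate 1, 133 in P1.5 Wfdc2 +/+ replicate 1 and 7 to 57 in the other 6. Per 100000 adult alpha reads this was 2535, 455 and 9.62 to 152.6. The embryonic beta-like gene Hbb-bh1 stayed at 3 to 35 reads in every library.

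**Figure D3:**
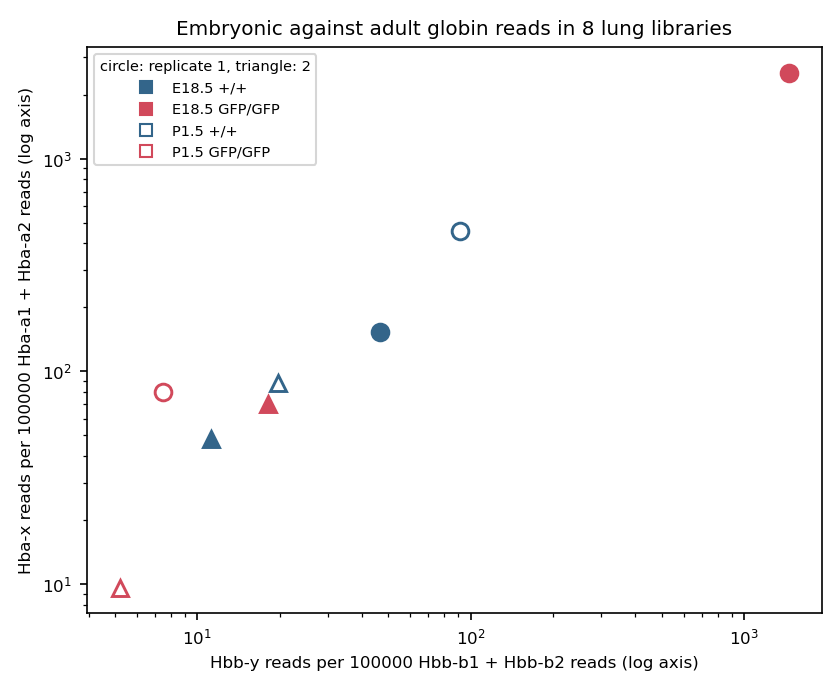
Hbb-y reads per 100000 adult beta-globin reads (log axis) against Hba-x reads per 100000 adult alpha-globin reads (log axis), 1 point per library, filled at E18.5 and open at P1.5, blue for Wfdc2 +/+ and red for Wfdc2 GFP/GFP. E18.5 Wfdc2 GFP/GFP replicate 1 lies at the upper right, at 1453 and 2535, and P1.5 Wfdc2 GFP/GFP replicate 2 at the lower left, at 5.22 and 9.62.

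Alas2 (chromosome X, 150547375 to 150570638, plus strand) encodes the red cell form of the enzyme that makes the first intermediate of heme. It had 257.1 and 256.3 RPM in E18.5 Wfdc2 +/+, 81.7 and 127 in E18.5 Wfdc2 GFP/GFP, 124 and 228 in P1.5 Wfdc2 +/+, and 208 and 282 in P1.5 Wfdc2 GFP/GFP. At E18.5 both Wfdc2 GFP/GFP libraries lay below both Wfdc2 +/+ libraries. With age the order differed by genotype, the P1.5 libraries lying below the E18.5 libraries in Wfdc2 +/+ and above them in Wfdc2 GFP/GFP. Alas2 lies within the span of the antisense gene Apex2, which had 157 to 759 reads against 2698 to 8851 for Alas2. Alas2 is X-linked, and its replicate 1 libraries are those with Xist reads. Whether strand was used in counting is not given in the sources used here.

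Of the 14 listed genes of heme synthesis and its transporters, Alas2 included, all were tested and 1 changed between the stages. Cpox, coproporphyrinogen oxidase, fell by 1.68 on the log2 scale (SE 0.33, limma adjusted p = 0.0386) over the mean of both genotypes. Its reads were 872, 824, 1139 and 684 at E18.5 and 167, 360, 106 and 204 at P1.5. In Wfdc2 GFP/GFP alone Cpox fell by 2.24 (adjusted p = 0.0463), and in Wfdc2 +/+ its difference of -1.12 did not pass (adjusted p = 0.42). Cpox was no longer called without E18.5 Wfdc2 GFP/GFP replicate 1, at -1.58 over both genotypes (adjusted p = 0.13) and -2.05 in Wfdc2 GFP/GFP (adjusted p = 0.24). Urod, another enzyme of the pathway, stood at 1204 to 2223 reads with a difference of 0.38 (adjusted p = 0.24), and Tmem14c, a mitochondrial porphyrin transporter, at 1607 to 3724 reads with 0.53 (adjusted p = 0.16). The median difference over the 14 genes was 0.10, against -0.32 over all genes tested, and without that library -0.06 against -0.30.

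Slc4a1 (chromosome 11, 102348824 to 102366203, minus strand) encodes band 3, the anion exchanger of the red cell membrane, and is also made in kidney. It had 18.6 and 23.5 RPM in E18.5 Wfdc2 +/+, 35.4 and 9.33 in E18.5 Wfdc2 GFP/GFP, 18.1 and 16.8 in P1.5 Wfdc2 +/+, and 20.5 and 24.8 in P1.5 Wfdc2 GFP/GFP. Its highest and its lowest library were the 2 replicates of E18.5 Wfdc2 GFP/GFP. Alas2 and Hba-a1 were at their lowest in replicate 1 of that group, in which Slc4a1 was at its highest.

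Of 18 listed genes of the red cell membrane, 13 were tested. Over the mean of both genotypes Spnb1, beta-spectrin, fell by 2.24 (SE 0.45, adjusted p = 0.0402) from 335 to 404 reads in 3 E18.5 libraries and 1448 in E18.5 Wfdc2 GFP/GFP replicate 1 to 51 to 128 reads at P1.5. Cldn13, a claudin, rose by 2.59 (SE 0.53, adjusted p = 0.0419) from 2 to 17 reads to 16 to 42 reads. The other 11 were not called, and the median difference of the 13 was -0.85. None of the 13 was called without E18.5 Wfdc2 GFP/GFP replicate 1, with -1.80 for Spnb1 (adjusted p = 0.0994), 3.03 for Cldn13 (adjusted p = 0.0782) and a median of -0.36. Of the listed genes that were not called, some were highest in E18.5 Wfdc2 GFP/GFP replicate 1, among them Rhag, the Rh-associated glycoprotein, with 107 reads there and 0 to 31 elsewhere, and Ermap with 207 against 25 to 57. These 2 were chosen after their values were seen.

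Klf1 (chromosome 8, 84901928 to 84905295, plus strand) encodes a zinc finger factor that activates adult beta-globin and many other red cell genes. It had 14 and 16 reads in E18.5 Wfdc2 +/+, 68 and 16 in E18.5 Wfdc2 GFP/GFP, 27 and 15 in P1.5 Wfdc2 +/+, and 12 and 5 in P1.5 Wfdc2 GFP/GFP. Scaled to the libraries this was 0.171 to 1.83 RPM. The count of 68 has a 95% Poisson interval of 52.8 to 86.2 and the count of 27 one of 17.8 to 39.3. These are not scaled to their libraries, which held 37209334 and 21714474 reads. The count of 5 has an interval of 1.62 to 11.7, which overlapped those of 12, 14, 15 and 16. The intervals of the counts from 12 to 27 overlapped one another. Klf1 is thus near the limit of what these depths can compare.

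Of 14 listed transcription factors of red cells, 12 were tested and none was called in any comparison of stage or genotype. Ldb1, a partner of the GATA and TAL factors in many tissues, had the most reads per length, with a stage difference of 0.65 (adjusted p = 0.14), followed by Zbtb7a with -0.24 (adjusted p = 0.45). At an unadjusted p under 0.05, 1 of the 12 was higher and 2 were lower at P1.5, where 39% of all genes differed.

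Epor (chromosome 9, 21958899 to 21963576, minus strand) encodes the erythropoietin receptor. It had 99 and 81 reads in E18.5 Wfdc2 +/+, 116 and 124 in E18.5 Wfdc2 GFP/GFP, 40 and 105 in P1.5 Wfdc2 +/+, and 92 and 241 in P1.5 Wfdc2 GFP/GFP, or 1.84 to 8.24 RPM in all. Both extremes were at P1.5, and the 2 replicates of each P1.5 group were far apart, at 1.84 and 5.40 RPM in Wfdc2 +/+ and at 3.97 and 8.24 RPM in Wfdc2 GFP/GFP. None of the 8 listed genes of erythropoietin signalling was called between stages, with a median difference of -0.47, against -0.32 over all genes tested. Without E18.5 Wfdc2 GFP/GFP replicate 1 the median was -0.12, against -0.30. Among the listed genes Cish, a feedback inhibitor, had 1025 to 1786 reads and a difference of 0.46 (limma adjusted p = 0.22). The row for the ligand Epo, at 0.57, is among the 8, but it spans other genes, and its reads cannot be taken as Epo.

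Tfrc (chromosome 16, 32608920 to 32632794, plus strand) encodes the transferrin receptor, by which iron enters red cell precursors and dividing cells. It had 67.6 and 64.1 RPM in E18.5 Wfdc2 +/+, 157 and 48.5 in E18.5 Wfdc2 GFP/GFP, 32.3 and 24.8 in P1.5 Wfdc2 +/+, and 74.3 and 97.0 in P1.5 Wfdc2 GFP/GFP. At P1.5 both Wfdc2 GFP/GFP libraries lay well above both Wfdc2 +/+ libraries, which were the lowest of the 8. The genes of dividing cells summed to 133 and 232 RPM in P1.5 Wfdc2 GFP/GFP and to 91.6 and 437 RPM in P1.5 Wfdc2 +/+, where the ranges overlapped, and their part in the Tfrc result was not tested.

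Of 13 listed genes of iron uptake, storage and export, 9 were tested and none was called between stages, with a median difference of -0.72. The ferritin chains Ftl1 and Fth1, which store iron, had the most reads per length. Ftl1 ran from 23515 to 62560 reads with a difference of 1.10 (SE 0.36, adjusted p = 0.0757), and Fth1 from 11908 to 33897 reads with 0.77 (adjusted p = 0.16). Among 14 listed late enzymes and clearance genes of red cells, 10 were tested, none was called and the median difference was -0.44. Car2, carbonic anhydrase, had 935 to 8749 reads with a difference of -1.04 (adjusted p = 0.18), and Bnip3l, which serves the removal of mitochondria, 3068 to 9937 reads with -0.67 (adjusted p = 0.098).

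The stages were then compared with limma, on log2 RPKM, for all genes at once. Over the mean of both genotypes none of the 9 members was called at an adjusted p under 0.05, where 5.14% of all genes tested were (803 of 15627, 403 higher and 400 lower at P1.5). With 1 library left out this count over all genes ran from 28 (without P1.5 Wfdc2 GFP/GFP replicate 1) to 7125 (without P1.5 Wfdc2 +/+ replicate 2), with 71 and 3156 without replicate 1 and replicate 2 of E18.5 Wfdc2 GFP/GFP, 31 and 55 without replicate 1 and replicate 2 of E18.5 Wfdc2 +/+, 41 without P1.5 Wfdc2 GFP/GFP replicate 2 and 613 without P1.5 Wfdc2 +/+ replicate 1. Voom on the reads called 0 members too, with 1 at an unadjusted p under 0.05, where 6449 of 15627 genes were. The median difference over all genes tested was -0.32 here, -0.15 within Wfdc2 +/+, -0.46 within Wfdc2 GFP/GFP, 0.09 between genotypes at E18.5, -0.20 at P1.5 and -0.33 for the interaction, and each member is to be read against it. Hbb-b1 came nearest. Its level was 2.65-fold higher at P1.5 (log2 difference 1.404, SE 0.46, 95% interval 0.34 to 2.47, adjusted p = 0.0757). It was the only member at an unadjusted p under 0.05, where 39% of all genes were, and the only one with no overlap between the 4 libraries of each stage, where 20.9% were (after median centring again Hbb-b1 alone, against 25.5%). Hba-a1 differed by 1.13 (SE 0.53, adjusted p = 0.15), the summed alpha pair by 1.13 (SE 0.45, adjusted p = 0.11) and the summed beta pair by 1.27 (SE 0.46, adjusted p = 0.0908). The other members lay between -0.63 for Tfrc and 0.97 for Hba-a2, with adjusted p of 0.23 to 0.97. Without E18.5 Wfdc2 GFP/GFP replicate 1 the difference of Hbb-b1 was 1.03 (adjusted p = 0.15), that of Hba-a1 0.51 (adjusted p = 0.21), that of the summed alpha pair 0.67 (adjusted p = 0.18) and that of the summed beta pair 0.92 (adjusted p = 0.17). Without replicate 2 of that group the differences were 1.75 for Hba-a1, 1.78 for Hbb-b1 and -1.05 for Tfrc. With every library and quantile normalization, Hbb-b1 differed by 0.30 (limma adjusted p = 0.40) and Hba-a1 by 0.30 (adjusted p = 0.63).

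Within Wfdc2 +/+ mice no member was called between stages, where 0.0576% of all genes were, 9 in number, or 0 to 8 with 1 library left out except 2166 without P1.5 Wfdc2 +/+ replicate 2 (voom: 0 members, and 0 at an unadjusted p under 0.05). By limma 1 member had an unadjusted p under 0.05, Tfrc (-1.22, SE 0.52, 95% interval -2.43 to -0.0047, adjusted p = 0.42), where 11.8% of all genes were. Hba-a1 differed by -0.26 (SE 0.75), a value that median centring of the libraries turned to 0.01, and Hbb-b1 by 0.83 (SE 0.65, adjusted p = 0.50). Between 2 libraries and 2 the stages did not overlap for 7 of 9 members, where this held for 55.6% of all genes. After median centring it was 4 members (Alas2, Klf1, Hbb-b1 and Tfrc), against 61.9% of all genes.

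Within Wfdc2 GFP/GFP mice no member was called either, where 4.55% of all genes were, 711 in number, or with 1 library left out from 0 (without replicate 1 of E18.5 or of P1.5 Wfdc2 GFP/GFP) to 4874 (without P1.5 Wfdc2 +/+ replicate 1). Voom called 0 members, with 3 at an unadjusted p under 0.05. By limma 4 differed at an unadjusted p under 0.05, where 35.6% of all genes did. They were Hba-a1 at 2.52 (SE 0.75, adjusted p = 0.0715), Hbb-b1 at 1.98 (SE 0.65, adjusted p = 0.0831) and Alas2 at 1.25 (SE 0.39, adjusted p = 0.0765), each higher at P1.5, and Klf1 at -1.75 (SE 0.73, adjusted p = 0.13). The stages did not overlap for 5 of the 9, where this held for 67.2% of all genes, and after median centring for 5 against 68.2%. Without E18.5 Wfdc2 GFP/GFP replicate 1 these 4 differences were 1.28, 1.23, 0.93 and -0.88 (adjusted p = 0.24, 0.29, 0.34 and 0.55).

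Between genotypes at E18.5 no member was called, where 0.0192% of all genes were (voom: 0 members, and 1 at an unadjusted p under 0.05). By limma Alas2 alone had an unadjusted p under 0.05, where 4.37% of all genes did. It was lower in Wfdc2 GFP/GFP by a log2 difference of -1.33 (SE 0.39, 95% interval -2.24 to -0.43, adjusted p = 0.69). Without E18.5 Wfdc2 GFP/GFP replicate 1 its difference was -1.01 (SE 0.44), while that of Hba-a1 went from -1.33 to -0.09 and that of Hbb-b1 from -1.04 to -0.29. The genotypes did not overlap for 4 of 9 members, Alas2, Klf1, Hbb-b1 and Epor, where this held for 36% of all genes. After median centring it was 4 (Hba-a1 in place of Epor), against 35.4%.

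Between genotypes at P1.5 no member was called, where 0.0128% of all genes were, 2 in number, or 0 to 24 with 1 library left out (voom: 0 members, and 2 at an unadjusted p under 0.05). By limma 3 members had an unadjusted p under 0.05, where 10.9% of all genes were. Tfrc was higher in Wfdc2 GFP/GFP by 1.59 (SE 0.52, 95% interval 0.37 to 2.80, adjusted p = 0.35), and over the 8 fits that each left out 1 library this value lay between 1.39 and 1.78. Klf1 was lower by -1.72 (SE 0.73, adjusted p = 0.45), on 5 to 27 reads. Hba-a2 was lower by -6.31 (SE 2.16, adjusted p = 0.36), in the split with Hba-a1 described above, and the summed alpha pair went the other way, at 1.01 (SE 0.64, adjusted p = 0.61). Hba-a1 alone differed by 1.45 (SE 0.75, 95% interval -0.29 to 3.18, adjusted p = 0.53) and Hbb-b1 by 0.11 (SE 0.65, -1.40 to 1.63). The genotypes did not overlap for 6 of 9 members, where this held for 39.4% of all genes, and after median centring for 7 against 41.3%.

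**Figure D4:**
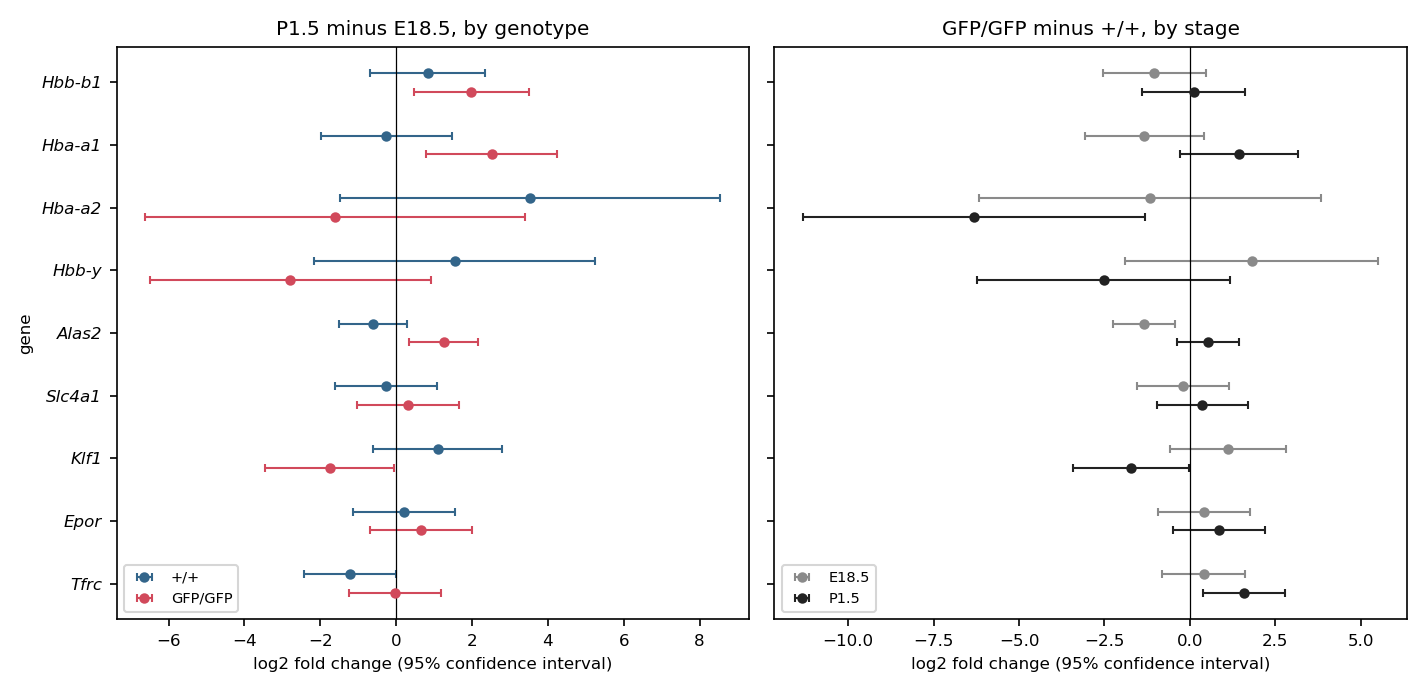
Log2 fold changes of the 9 genes with 95% confidence intervals from limma, on the left P1.5 minus E18.5 in Wfdc2 +/+ (blue) and in Wfdc2 GFP/GFP (red), on the right Wfdc2 GFP/GFP minus Wfdc2 +/+ at E18.5 (grey) and at P1.5 (black), with 2 libraries in each group. For Alas2, Klf1 and Hba-a1 the points of the stage differences lie on opposite sides of 0, and the widest intervals are those of Hba-a2 and Hbb-y.

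Whether the stage difference depended on genotype was tested as an interaction, the stage difference of Wfdc2 GFP/GFP minus that of Wfdc2 +/+. No member was called, and 0% of all genes were, by limma or by voom on the reads. At an unadjusted p under 0.05 there were 3 members by both tools, where 10.2% of all genes were by limma (1599 of 15627, and 1639 by voom). They were Alas2 at 1.86 (SE 0.55, adjusted p = 0.32), Hba-a1 at 2.78 (SE 1.06, adjusted p = 0.43) and Klf1 at -2.85 (SE 1.04, adjusted p = 0.40). For these 3 of 9 the stages were apart in both genotypes and in opposite directions, which held for 5.65% of all genes. After median centring this held for Alas2 only among the 3, since Hba-a1 then overlapped between stages in Wfdc2 +/+ and Klf1 in Wfdc2 GFP/GFP. The share of all genes for which it held after centring was not counted, so Alas2 cannot be set against it. Without E18.5 Wfdc2 GFP/GFP replicate 1 the values were 1.54 for Alas2, 1.54 for Hba-a1 and -1.98 for Klf1. The comparisons within genotypes and within stages share libraries and are not independent of one another.

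The profiles of the members over the 8 libraries were set side by side as the root mean square difference of their centred log2 RPKM, as a description. The closest members were Hba-a1 and Hbb-b1 (0.58), then Slc4a1 and Tfrc (0.60), then Alas2 and Epor (0.67). Many genes that are not members were nearer still, since 135 genes lay nearer to Hba-a1 than Hbb-b1 did, 1929 nearer to Slc4a1 than Tfrc and 4078 nearer to Alas2 than Epor. Alas2 was 0.75 from Hba-a1 and 0.82 from Slc4a1. Over all genes tested, the gene closest to Alas2 was Bpgm, bisphosphoglycerate mutase (0.21), and the gene closest to Hbb-y was Hba-x (0.84). For Hba-a1 the closest was Psmb8 (0.24), for Hbb-b1 Prkcdbp (0.18), for Epor H2-Q4 (0.19), for Slc4a1 Acpp (0.29), for Klf1 Slc10a5 (0.34) and for Tfrc D17H6S56E-5 (0.35). Hba-a2 had no close neighbour, the nearest being Gm12059 at 2.14. The spread over the 8 libraries was largest for Hba-a2 (SD 3.36 on the log2 scale, above 99.9% of genes tested) and Hbb-y (2.06, above 98.4%) and smallest for Slc4a1 (0.55, above 42.3%).

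Sequences before the start of 8 of the 9 members were taken from RefSeq (GRCm38.p6). The 120 bases before the RefSeq start are shown for 5 members whose levels are compared above. The gene spans given above are those deposited by the authors, and their starts differ from those of RefSeq. The letters shown thus lie within the deposited span for Hba-a1 and Hbb-b1, and overlap it for Hbb-y, Alas2 and Klf1. Capitals mark matches on either strand to GATA motifs (the word AGATAA, with T allowed as its first letter and G as its last), CACCC motifs (the word CCACCC, which also covers the longer form with 2 more C before it, and besides it the word CCACACCC), TATA motifs (the word TATAAA, with C allowed as its first letter) and CCAAT.
Hba-a1, chr11:32283552-32283671, plus strand: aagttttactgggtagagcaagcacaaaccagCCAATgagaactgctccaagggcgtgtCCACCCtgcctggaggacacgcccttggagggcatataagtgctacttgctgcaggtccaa
Hbb-b1, chr7:103827929-103828048, minus strand: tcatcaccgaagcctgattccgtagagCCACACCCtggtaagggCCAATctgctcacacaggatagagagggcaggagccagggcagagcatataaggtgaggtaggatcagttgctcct
Hbb-y, chr7:103853208-103853327, minus strand: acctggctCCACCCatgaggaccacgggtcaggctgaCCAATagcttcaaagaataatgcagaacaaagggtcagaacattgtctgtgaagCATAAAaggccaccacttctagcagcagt
Alas2, chrX:150547297-150547416, plus strand: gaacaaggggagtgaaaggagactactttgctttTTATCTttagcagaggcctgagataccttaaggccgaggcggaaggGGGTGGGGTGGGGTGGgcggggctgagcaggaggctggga
Klf1, chr8:84901862-84901981, plus strand: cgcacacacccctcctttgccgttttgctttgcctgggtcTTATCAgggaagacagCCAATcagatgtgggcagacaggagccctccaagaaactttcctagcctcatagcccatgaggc
The window of Hba-a2 is not shown because it holds a run of 247 bases identical to that of Hba-a1, the gene with which its share of reads varied. In the 250 bases before the start, a GATA motif was found for 7 of the 8 members (not Tfrc) and in 26.5% of 32544 such windows of all genes. A CACCC motif was found for 7 (not Klf1) against 30.2%, CCAAT for 6 against 33.8%, and a TATA motif for 2, Alas2 and Hbb-y, against 20.8%. Tfrc was counted over separate RefSeq starts, with a match before either taken as found. Its window ending at 32608895 held CCAAT and no CACCC motif, and that ending at 32609121 a CACCC motif and no CCAAT. The percents are shares of single windows. The TATA match of Alas2 lies 209 bases before the start, outside the letters shown. The GATA matches of Hba-a1 (183 bases before the start), Hbb-b1 (210) and Hbb-y (162) lie outside them too, as does a TATA match of Hbb-y (158). The letters atataag in Hba-a1 and Hbb-b1 are not among the words searched, so this count covers those words only. The motif matches are descriptions of these letters and not of binding.

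Genes of other blood cells and of the lung were counted in the same way, beside 5.14% of all genes called and 39% at an unadjusted p under 0.05. Of 9 neutrophil genes 6 rose between E18.5 and P1.5 over the mean of both genotypes, with summed levels of 55.1 to 91.0 RPM at E18.5 and 650 to 1887 RPM at P1.5. The antimicrobial peptide gene Camp rose by 4.95 (adjusted p = 0.0062), Ngp by 3.22 and S100a9 by 4.23 at the same adjusted p, and Ltf by 3.21 (adjusted p = 0.0075). Of 10 platelet and megakaryocyte genes 5 rose, from 27.8 to 57.0 RPM to 97.3 to 130 RPM in sum, among them Pf4, platelet factor 4, by 1.52 (adjusted p = 0.0258), Itga2b by 1.48 (0.0288), Gp9 by 1.86 (0.0382) and Gp5 by 2.11 (0.0402). Of 8 macrophage genes tested 2 rose, the receptor Marco by 3.41 (adjusted p = 0.0128) and the complement gene C1qa by 1.86 (0.0457). None of these was called between genotypes. Without E18.5 Wfdc2 GFP/GFP replicate 1 the stage calls were 4 of 9 neutrophil genes (Camp, Ngp, Ltf and S100a9), 0 of 10 platelet genes and 1 of 8 macrophage genes (Marco). Of the remaining lists, 0 of 6 endothelial and 0 of 8 dividing-cell genes were called. In the epithelial list 1 of 6 genes rose (Scgb1a1, by 4.29, adjusted p = 0.033), and in the liver list 1 of 4 (Apoa1, by 4.46, adjusted p = 0.0149). Without that library these differences were 3.33 and 3.87. All 8 dividing-cell genes were lower at P1.5 at an unadjusted p under 0.05, a count that holds for the fit with every library. Without E18.5 Wfdc2 GFP/GFP replicate 1 the difference of Mki67 went from -1.68 to -1.15 and that of Ccna2 from -2.04 to -1.81. The part of these cells in the levels of the 9 members was not tested.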

How the data were processed

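RNA of 8 mouse lung samples, 2 for each stage and genotype as their labels give them, was measured by RNA-seq. Per the labels and the study's methods, libraries were made with a kit that keeps strand, and reads were cut to 36 bases, trimmed with Trim Galore 0.4.0, mapped to mm10 with TopHat2 2.1.1 and counted in SeqMonk. The submitters' notes also name CASAVA 1.8. The authors deposited log2 RPKM for each gene and library, scaled by the gene's whole span with introns, with a gene without reads entered as 0.9 read. Strand use in counting is not given in the sources used here. Whole reads were recovered from the steps of these values, and 99.86% to 99.97% of values with reads lay within 0.02 of a whole number. Totals of 19457647 to 37209334 reads limit precision, and the intervals cover counting error only.

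The 15627 genes that averaged 0.05 RPKM or more entered limma 3.58.1 (R 4.3.3) on the deposited scale with no pseudocount added. The fit gave each group its own mean, left 4 residual degrees of freedom and used a trend in the prior, with two-sided p-values adjusted over all genes tested by the Benjamini-Hochberg method (threshold 0.05). Between 2 libraries and 2, exact permutation p-values stop at 0.33. None is given, also not for the stages over both genotypes, which have more libraries on each side. The p-values measure only the spread between these libraries. The script was tested on simulated data. The members, gene lists and tests were chosen with earlier results of these data known. The text names all members and, from each list, up to 4 genes with the smallest adjusted p in the stage comparison among those under the threshold, or, where fewer than 2 passed, the 2 with the highest mean RPKM. Alternatives were pseudocounts of 0.1 and 1 RPKM, no filter or 0.5 RPKM, median centring, quantile normalization, only the groups compared, no trend, the replicate block and each library left out. Voom on the recovered reads, summed globin pairs, the gene lists without 1 library and group overlap after median centring were added after seeing the data. Sequences came from GENCODE M21 and RefSeq. Of 15 listed globin and chaperone symbols 10 were found in the deposited table, and older symbols were matched through RefSeq synonyms. Python 3.11.15, pandas 2.3.3, numpy 2.4.6, scipy 1.17.1 and matplotlib 3.10.9 were used. Protein sequences were not used here. A list of red cell markers and 1 similar profile are not reported here.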

Additional observations from a re-analysis of the deposited data

Results flagged for a closer look

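Alas2, Hba-a1 and Klf1 are listed because both P1.5 libraries lay on one side of both E18.5 libraries in Wfdc2 +/+ and on the other side in Wfdc2 GFP/GFP. The difference between the stage differences, tested as an interaction with limma, was 1.86 for Alas2 (adjusted p = 0.32, with 0.14 to 0.98 over the alternatives). It was 2.78 for Hba-a1 (adjusted p = 0.43, with 0.12 to 0.99) and -2.85 for Klf1 (adjusted p = 0.40, with 0.20 to 0.98). None passed the threshold in any alternative.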

How the results depend on the processing

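No member passed the threshold in the reported fits, and the count stayed 0 in 104 alternative fits and was above 0 in 8. With a filter of 0.5 RPKM it was 1 over the mean of both genotypes (Hbb-b1) and 1 within Wfdc2 GFP/GFP (Hba-a1), where fewer genes were tested, and with median centring 1 within Wfdc2 GFP/GFP (Alas2). With each library left out in turn it ran from 0 to 3 in both of these comparisons. Over the mean of both genotypes it was 3 without E18.5 Wfdc2 GFP/GFP replicate 2 (Hba-a1, Hbb-b1, Tfrc) and 1 without P1.5 Wfdc2 +/+ replicate 2 (Hbb-b1). Within Wfdc2 GFP/GFP it was 2 without E18.5 Wfdc2 GFP/GFP replicate 2 (Hba-a1, Hbb-b1), 3 without P1.5 Wfdc2 +/+ replicate 1 (Alas2, Hba-a1, Hbb-b1) and 2 without P1.5 Wfdc2 +/+ replicate 2 (Alas2, Hba-a1). Directions that turned, none of them called, were as follows. Over the mean of both genotypes Slc4a1 was -0.025 with a pseudocount of 1 RPKM, and Klf1 was 0.15 with median centring and 0.15 with quantile normalization. Within Wfdc2 +/+ median centring gave 0.0036 for Slc4a1 and 0.0098 for Hba-a1. Within Wfdc2 GFP/GFP Tfrc was 0.64 with median centring and 0.013 with quantile normalization. Leaving out 1 library moved the mean stage difference from -0.46 to 0.51 for Slc4a1, from -0.76 to 0.11 for Klf1, from -0.59 to 2.53 for Hba-a2 and from -1.86 to 0.61 for Hbb-y. Within Wfdc2 +/+ it ran from -0.0059 to 3.09 for Hbb-y and from -0.57 to 0.98 for Epor. Within Wfdc2 GFP/GFP it ran from -0.65 to 1.27 for Slc4a1, from -4.73 to 1.52 for Hba-a2 and from -0.88 to 0.81 for Tfrc. The genotype difference at E18.5 ran from -1.16 to 0.76 for Slc4a1, from -4.29 to 1.96 for Hba-a2, from -0.65 to 4.28 for Hbb-y and from -0.44 to 1.25 for Tfrc, and at P1.5 from -0.32 to 0.55 for Hbb-b1. The interaction ran from -0.39 to 1.54 for Slc4a1 and from -0.33 to 1.22 for Epor. The cause was not tested. The replicate block called 0 members in each comparison. Same-numbered libraries deviated together between genotypes (r = 0.23 at E18.5 and 0.21 at P1.5) but not between stages (-0.017 and -0.0068). Nothing in the labels ties the numbers to litters, though the study describes littermate controls. The numbers went with sex by the Xist and Y chromosome reads, and its part in these values was not tested. Depth limits Klf1 (5 to 68 reads) and Hbb-y (17 to 931 reads), and the split of reads limits Hba-a2.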

Other observations

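In all 4 groups Hbb-y and Hba-x, each set against the adult globins, were higher in replicate 1, the library with Xist reads, than in replicate 2. Hbb-bh1, another embryonic gene, had 19 reads in replicate 1 against 12 in replicate 2 of E18.5 Wfdc2 +/+. It had 35 against 3 in E18.5 Wfdc2 GFP/GFP and 17 against 8 in P1.5 Wfdc2 +/+. In P1.5 Wfdc2 GFP/GFP it had 3 against 24 and did not share this order. Hbb-y per 100000 adult beta reads was 46.4 against 11.2 in E18.5 Wfdc2 +/+, 1453 against 18.1 in E18.5 Wfdc2 GFP/GFP, 91.7 against 19.8 in P1.5 Wfdc2 +/+ and 7.47 against 5.22 in P1.5 Wfdc2 GFP/GFP. Hba-x per 100000 adult alpha reads was 152.6 against 48.4, 2535 against 70.1, 455 against 88.4 and 80.2 against 9.62 in the same order. The last Hbb-y pair rests on 17 reads in each library. This was seen in the data and not tested.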
